A study of Mus musculus with 11 samples.

Results

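Retinas of wild-type C57Bl/6J mice given the LSD1 inhibitor GSK2879552 (GSK below) are compared here with retinas of wild-type mice given saline. The comparison holds 5 of the 11 RNA libraries of the study, 3 from GSK-treated and 2 from saline-treated mice. They were chosen by strain and treatment label alone, and the drug effect was read across 17099 genes with enough counts to test. Injections were intraperitoneal and daily from postnatal day 9 until day 24, at 4.2 mg/kg for GSK, and the right-eye retina of 1 animal went into each library. The other 6 libraries come from mice of the rd10 strain (B6.CXB1-Pde6brd10/Jrd10) on the same schedule, 3 given GSK and 3 given saline. Rods of rd10 mice degenerate because of a mutant Pde6b, a gene the wild-type animals carry intact. The drug was given to the whole animal, so no cell type was targeted.

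LSD1, the product of Kdm1a, is a demethylase that removes methyl groups from lysine 4 of histone H3, a mark of active promoters and enhancers. It works in the CoREST complex together with histone deacetylases, and DNA-binding repressors such as REST and the Snail family bring the complex to their target genes. Blocking the enzyme is known to raise transcripts of genes that LSD1 complexes hold down. The days covered by the injections are those in which mouse photoreceptors build their outer segments and the inner retina completes its synapses.

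The 5 wild-type libraries held between 22501045 and 28053367 counts, with between 20121 and 20927 genes detected. Transcript levels are in CPM, counts scaled to a common library size with TMM (trimmed mean of M values). Fold changes are log2 of GSK over saline, with a standard error after ± worked back from the statistic of the edgeR test. In the first principal component of the wild-type libraries, which carried 40.6% of their variance, the GSK libraries lay at 11.9, 23.3 and 13.7 and the saline libraries at -22.9 and -26.0. The second component, with 25.4%, set the 2 saline libraries far apart, at 25.6 and -24.7, with the GSK libraries between them at 0.109, -4.41 and 3.40. Lens genes summed to 858 CPM in saline replicate 2, against 36.3 to 40.2 CPM in the other 4 wild-type libraries. In rd10 GSK replicate 2 they summed to 8729 CPM, against 46.8 to 130 CPM in the other rd10 libraries. Xist, a marker of female cells, was at 0.338 CPM in GSK replicate 2 and between 784 and 944 CPM in the other 4. The words rose, fell and changed are kept for genes whose p from edgeR's quasi-likelihood test, adjusted by Benjamini-Hochberg over all tested genes, was under 0.05.

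The targeted enzyme itself showed no called change in its transcript. Kdm1a stood at 100.3, 96.6 and 105 CPM in GSK retinas, against 96.0 and 95.1 CPM in saline retinas (log2 fold change 0.07 ± 0.06, edgeR adjusted p = 0.865). GSK2879552 blocks the protein, so the transcript does not check the treatment labels. Hdac1, a histone deacetylase of the CoREST complex, averaged 36.7 ± 0.722 CPM in GSK retinas and 36.8 ± 1.10 CPM in saline retinas (SD, n = 3 and 2). Pde6b, the rod phosphodiesterase subunit, averaged 2243 ± 35.4 CPM in GSK retinas and 2266 ± 49.8 CPM in saline retinas. None of the 18 measured members of the LSD1 and CoREST list changed, and their median log2 fold change was 0.03 (1 member had an unadjusted p under 0.05). The 2 members with the smallest p were Rest at 0.26 ± 0.09 and the corepressor Rcor2 at 0.21 ± 0.12 (edgeR adjusted p = 0.298 and 0.712).

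In the fit over all 11 libraries few genes passed in wild-type retina, and most of those that passed rose. Of the 17099 genes tested 91 changed (0.532%), 76 upward (0.444%) and 15 downward (0.0877%), and each of the 91 is annotated as protein coding. The rises were the larger changes: 33 of the 76 rising genes were at least 2-fold higher in GSK retinas, while 0 of the 15 falling genes were at least 2-fold lower. The median log2 fold change was 0.93 among the rising genes (0.27 to 8.96, the upper end being a fitted value of a gene at 0 in saline) and -0.47 among the falling genes (-0.85 to -0.32). The level in saline retinas, which also enters the contrast that chose the genes, had a median per kilobase of exon of 1.56 CPM for the rising genes, 11.6 CPM for the falling genes and 4.97 CPM for all genes tested. Of the rising genes 15.8% were below 1 CPM in saline retinas, against 15.1% of all genes tested. For each of the 91 the GSK and saline libraries did not overlap, as was so for 34.4% of all tested genes, 17.2% with the GSK libraries above and 17.3% with them below. Counts of a whole retina cannot tell fewer cells of a type from less RNA per cell, here and in every list below.

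The number of genes that passed differed widely between fits. The fit above pools the spread of all 11 libraries, with a common biological coefficient of variation of 0.129, against 0.0491 in the 5 wild-type libraries. With the 5 wild-type libraries fitted alone, 916 of 16230 genes changed (5.64%), 573 upward (3.53%) and 343 downward (2.11%), and the 91 were all among them. Leaving out any 1 wild-type library left between 12 and 27 calls: 25, 25 and 27 without GSK replicates 1, 2 and 3, and 12 and 17 without saline replicates 1 and 2. At an unadjusted p under 0.05 there were 1535 genes (8.98%). Of the 91 genes 60 passed in at most 7 of 14 alternative fits. Among these were Syne3, Tpm2, Serpine2 and Limk1, which passed in 5, and Pvalb and Hapln1, which passed in 6.

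**Figure D1:**
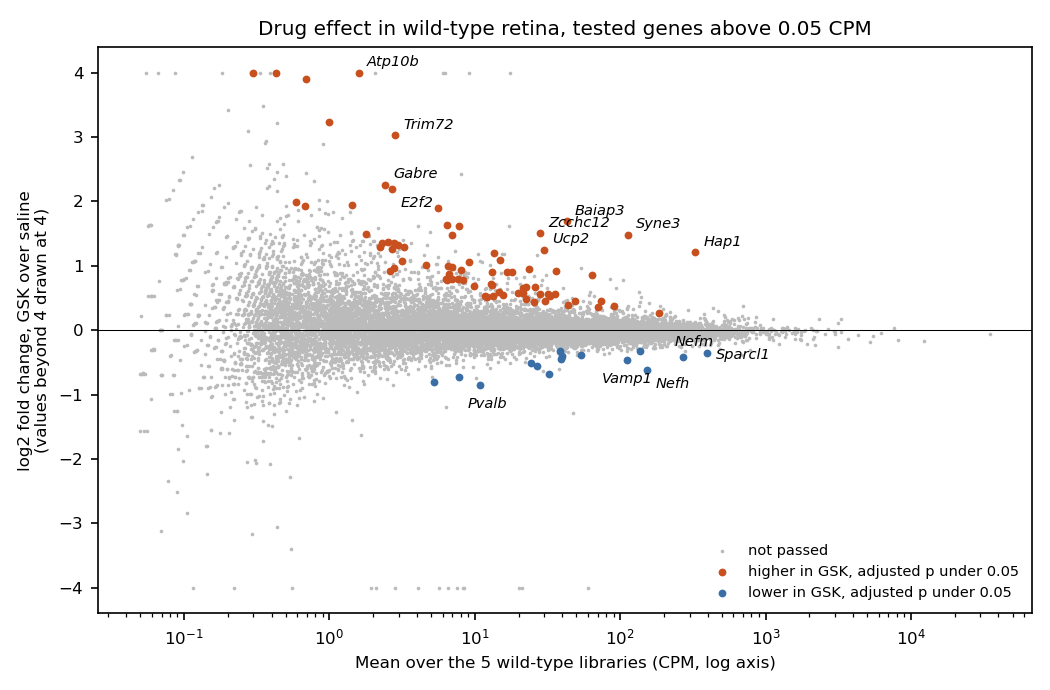
Each point is 1 tested gene with a mean above 0.05 CPM, its mean level over the 5 wild-type libraries on the x axis (CPM, log axis) and its log2 fold change, GSK over saline, on the y axis, drawn at 4 where it lies beyond. The 76 rising genes spread over low and high levels, while the 15 falling genes sit close to 0 on the y axis and above about 5 CPM.

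The smallest adjusted p of all genes belonged to Hap1, followed by Baiap3 and Zcchc12. Hap1 (ENSMUSG00000006930), an adaptor that links huntingtin to motor proteins, had 424, 432 and 416 CPM in GSK retinas, against 173 and 193 CPM in saline retinas. That was 2.32-fold higher (log2 fold change 1.21 ± 0.07, edgeR adjusted p = 1.54e-05). Baiap3 (ENSMUSG00000047507), a Munc13-family protein of dense-core vesicle recycling, had 58.1, 62.3 and 56.8 CPM in GSK retinas and 17.7 and 18.7 CPM in saline retinas (1.70 ± 0.11, edgeR adjusted p = 2.37e-05). The lowest GSK library was more than 3 times the highest saline library for Baiap3. Doc2a, a calcium sensor for spontaneous transmitter release, had 12.1, 10.3 and 9.40 CPM in GSK retinas, against 3.69 and 3.21 CPM in saline retinas (1.62 ± 0.19). Mal2, a membrane protein of transcytosis, was at 18.4, 16.7 and 17.8 CPM in GSK retinas and at 7.66 and 7.64 CPM in saline retinas (1.20 ± 0.09). Each of these genes had groups that did not overlap.

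The other large rises belonged to genes of varied function. Zcchc12 (ENSMUSG00000036699), a zinc-finger coactivator of BMP signalling, had 37.0, 39.2 and 36.9 CPM in GSK retinas, against 13.6 and 12.8 CPM in saline retinas (1.51 ± 0.10, edgeR adjusted p = 2.37e-05). Syne3 encodes nesprin-3, which joins the nuclear envelope to intermediate filaments. It had 145, 164 and 148 CPM in GSK retinas, against 52.0 and 56.8 CPM in saline retinas (1.49 ± 0.24, edgeR adjusted p = 0.0382). Ucp2, a carrier of the inner mitochondrial membrane, had 38.4, 38.6 and 39.9 CPM in GSK retinas and 14.5 and 18.2 CPM in saline retinas (1.25 ± 0.15). The 3 GSK values of Ucp2 lay within 2 CPM of each other. Gstm7 and Gstt2, both glutathione S-transferases, rose by 1.09 ± 0.10 and 1.06 ± 0.15. Maob, the monoamine oxidase of glia and some neurons, rose by 1.36 ± 0.23 and averaged 3.71 ± 0.656 CPM in GSK retinas and 1.44 ± 0.0553 CPM in saline retinas.

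Some of the rising genes are best known from striated muscle. Tpm2, a tropomyosin, had 8.29, 7.89 and 7.38 CPM in GSK retinas, against 2.39 and 1.80 CPM in saline retinas (1.91 ± 0.32, edgeR adjusted p = 0.0285). Ryr1, the calcium release channel of skeletal muscle, was more variable, with 9.54, 11.0 and 7.47 CPM in GSK retinas and 2.49 and 4.22 CPM in saline retinas (1.47 ± 0.24). Trim72, a membrane repair protein, Cox6a2, a cytochrome c oxidase subunit, and Chrnb1, a subunit of the muscle acetylcholine receptor, rose by 3.03 ± 0.38, 3.23 ± 0.49 and 0.99 ± 0.15. The first 2 were low in saline retinas: Trim72 averaged 4.36 CPM in GSK and 0.533 CPM in saline retinas, and Cox6a2 1.55 and 0.162 CPM. Of the 7 measured genes on the skeletal muscle list (Acta1, Ckm and others) 0 changed in edgeR, and 0 had an unadjusted p under 0.05. They summed to 7.64, 7.77 and 6.51 CPM in GSK retinas, against 8.23 and 6.54 CPM in saline retinas, with ranges that overlap.

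Rising genes at lower levels or with smaller changes, picked out after their values were seen, included genes of neuropeptides and transmitter receptors. Pdyn, the dynorphin precursor, had 29.1, 27.9 and 31.3 CPM in GSK retinas, against 14.8 and 15.6 CPM in saline retinas (0.95 ± 0.09, edgeR adjusted p = 0.000606). Cck, the cholecystokinin precursor, rose by 0.71 ± 0.12, and Chrna3, a neuronal nicotinic receptor subunit, by 0.90 ± 0.15. Gabre, the epsilon subunit of the GABA-A receptor, had 3.56, 3.15 and 3.85 CPM in GSK retinas, against 0.526 and 0.922 CPM in saline retinas (2.26 ± 0.28). Bche, butyrylcholinesterase, rose by 0.94 ± 0.14, the G protein subunit gene Gnb4 by 0.90 ± 0.11, and the potassium channel gene Kcnc4 by 0.45 ± 0.08. The neuronal ubiquitin ligase gene Rnf112 rose by 0.92 ± 0.10. Syt16, a synaptotagmin relative, rose by 0.58 ± 0.08 and Cadps2, a priming factor of dense-core vesicles, by 0.60 ± 0.11. E2f2, a cell cycle transcription factor, had 3.64, 3.83 and 4.31 CPM in GSK retinas, against 0.957 and 0.747 CPM in saline retinas (2.20 ± 0.20), while the 17 measured cell division genes held 0 calls, 0 genes with an unadjusted p under 0.05 and a median of -0.09.

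A pair of genes was absent from the saline libraries. Atp10b, a lipid flippase, had 73, 66 and 55 counts in GSK retinas and 0 counts in both saline retinas. Against a floor of 3 counts per saline library it was at least 19.3-fold higher in GSK retinas (2.65 ± 0.261 CPM, SD, n = 3). Tmem233 had 15, 18 and 19 counts in GSK retinas and 0 in both saline retinas, at least 5.21-fold higher by the same floor. These bounds allow for counting error in the saline libraries only. They take the GSK mean as measured and leave out the spread between animals.

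**Figure D2:**
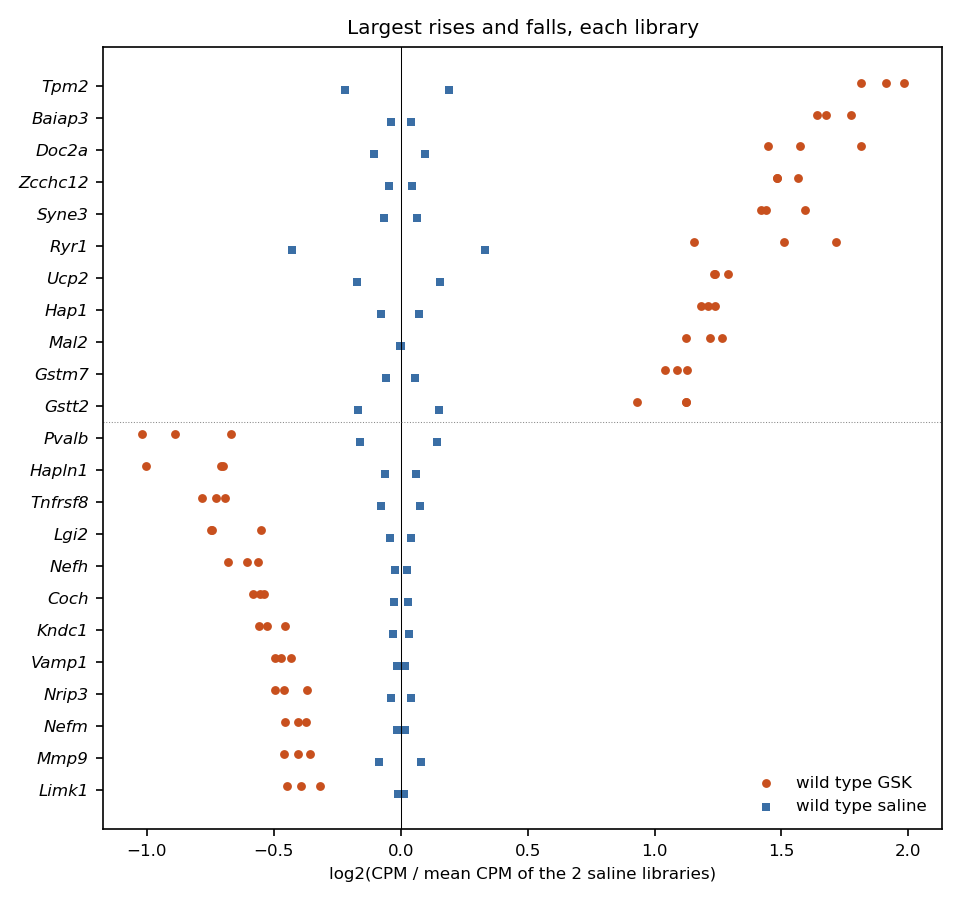
The x axis gives log2 of each library's CPM over the mean CPM of the 2 saline libraries, for 11 of the 12 rising genes (upper rows) and the 12 falling genes (lower rows) with the largest changes among genes at a mean of 5 CPM or more. Circles are the 3 GSK libraries and squares the 2 saline libraries, and for each gene shown the circles lie to 1 side of the squares.

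The falling genes were fewer and included genes of large axons and fast-signalling neurons. Nefh (ENSMUSG00000020396), the heavy neurofilament subunit, had 127, 121 and 131 CPM in GSK retinas, against 197 and 191 CPM in saline retinas (-0.61 ± 0.05, edgeR adjusted p = 0.000344). Nefm, the medium subunit, had 246, 232 and 241 CPM in GSK retinas, against 322 and 315 CPM in saline retinas (-0.41 ± 0.05, edgeR adjusted p = 0.00529). Both were lower in each GSK library than in either saline library. Vamp1, a vesicle SNARE of fast-firing neurons, had 98.2, 95.5 and 94.2 CPM in GSK retinas, against 134 and 131 CPM in saline retinas (-0.47 ± 0.06, edgeR adjusted p = 0.0036). Pvalb, the calcium buffer parvalbumin, fell most, with 9.34, 7.32 and 8.02 CPM in GSK retinas and 13.3 and 16.4 CPM in saline retinas (-0.85 ± 0.14, edgeR adjusted p = 0.0268). The values of Pvalb were low and its groups were close, about 4 CPM apart.

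The other falling genes were of varied function. Lgi2, a secreted leucine-rich protein, averaged 26.1 ± 2.08 CPM in GSK retinas and 41.8 ± 1.70 CPM in saline retinas (-0.68 ± 0.09). Hapln1, the link protein that joins hyaluronan to proteoglycans, averaged 4.03 ± 0.464 CPM in GSK retinas and 7.00 ± 0.418 CPM in saline retinas (-0.80 ± 0.15). Coch, an extracellular protein first known from the inner ear, fell by 0.56 ± 0.08 on the log2 scale, the gelatinase gene Mmp9 by 0.41 ± 0.07 and Sparcl1, a secreted glial protein of synapse formation, by 0.35 ± 0.06. Limk1, the kinase that inactivates cofilin, fell by 0.39 ± 0.07 on the log2 scale, while its relative Limk2 rose by 0.27 ± 0.05 and averaged 198 ± 3.68 CPM in GSK retinas and 164 ± 0.325 CPM in saline retinas. The actin regulator gene Cap2 fell by 0.32 ± 0.06 and Rgs4, a brake on G protein signalling, by 0.32 ± 0.06. Kndc1, a guanine exchange factor of dendrites, fell by 0.51 ± 0.09, Nrip3 by 0.44 ± 0.08 and Tnfrsf8, the receptor CD30, by 0.73 ± 0.11.

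The intermediate filament genes of neurons did not move together. Nefl, the light neurofilament subunit, had 733, 701 and 716 CPM in GSK retinas, against 903 and 874 CPM in saline retinas (-0.31 ± 0.07), and Ina, alpha-internexin, stood at -0.27 ± 0.06 (edgeR adjusted p = 0.0872 and 0.0661). Prph, which encodes peripherin, a filament of peripheral neurons and some retinal ganglion cells, had 24.3, 23.7 and 22.0 CPM in GSK retinas, against 7.75 and 7.51 CPM in saline retinas. Its GSK level was 3.06-fold the saline level (1.61 ± 0.34, edgeR adjusted p = 0.116) in the fit that pools the spread with rd10 GSK retinas, which had 66.4, 40.7 and 26.7 CPM. In the 5 wild-type libraries alone Prph rose (1.62 ± 0.09, edgeR adjusted p = 1.28e-10), while Nefl and Ina fell (edgeR adjusted p = 9.44e-05 and 0.000983).

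**Figure D3:**
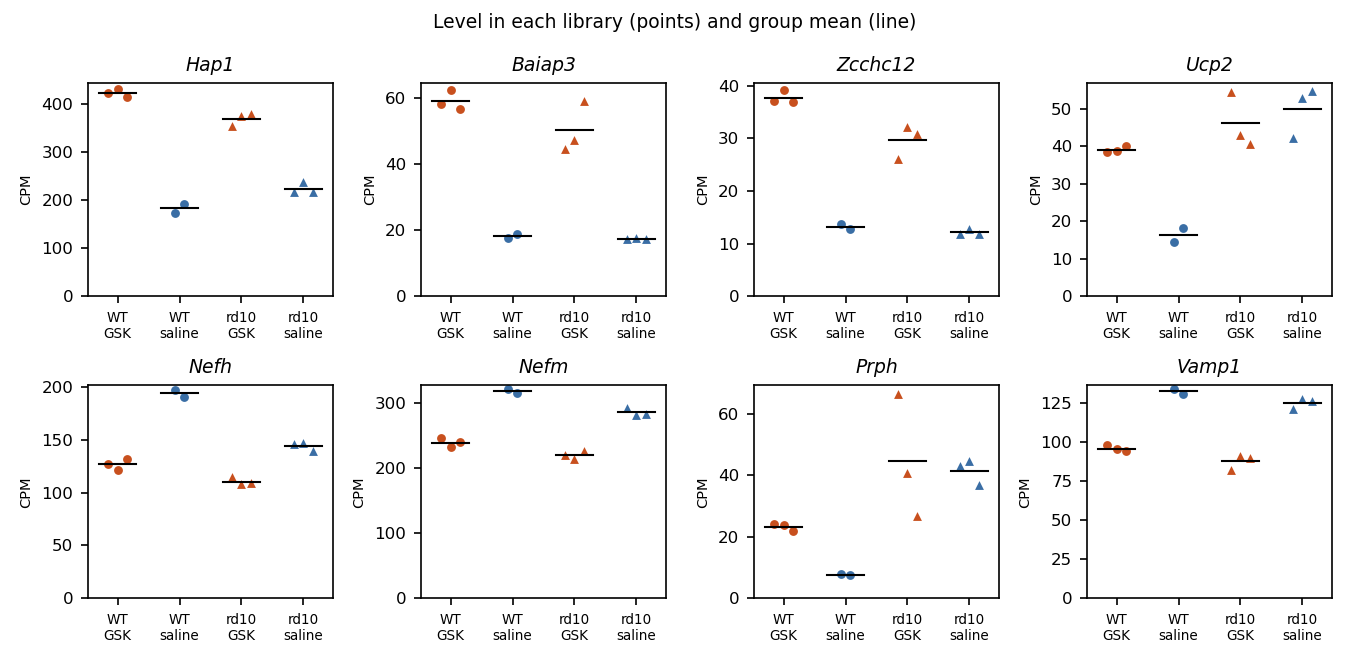
Each panel shows 1 gene, with the CPM of each library as a point and the group mean as a line, for wild-type (WT) GSK and saline and rd10 GSK and saline retinas. Hap1, Baiap3 and Zcchc12 are higher with GSK in both genotypes, Ucp2 and Prph differ between the wild-type groups while their rd10 groups overlap, and Nefh, Nefm and Vamp1 are lower with GSK in both genotypes.

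The lists of retinal cell types held 0 calls, with Nefh, also a marker of ganglion cells, counted on the axon list instead. Of 19 rod genes 0 changed and the median log2 fold change was -0.04, against -0.0022 over all tested genes. The 23 genes shared by rods and cones (median -0.06), 15 cone genes (0.12), 19 bipolar genes (0.06), 17 amacrine genes (-0.04) and 18 microglia genes (0.06) held 0 calls as well. So did 16 Müller glia genes, of which 15 were higher in GSK retinas (median 0.13), and 21 nuclear genes of oxidative phosphorylation (-0.04). At an unadjusted p under 0.05 these lists held 0 rod, 0 shared, 0 cone, 2 bipolar, 3 amacrine, 0 microglia, 1 Müller glia and 0 oxidative phosphorylation genes. The 13 mitochondrially encoded genes held 0 calls too, but 12 were lower in GSK retinas (median -0.15). Of these 13 genes 4 had an unadjusted p under 0.05, against 8.98% of all tested genes. Stress and immune lists held 0 calls too: 20 interferon response genes (median 0.23), 16 genes of the ER and integrated stress responses (-0.04), 18 immediate early genes (-0.12) and 21 cell death genes (-0.07), with 0, 1, 1 and 1 genes at an unadjusted p under 0.05 in that order. A gene without a call is not shown to be unchanged. All lists, here and below, were chosen with earlier results of these data known, so their counts are no separate support.

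Some of the few calls on lists were of neuronal genes. Of 19 neurofilament and axon cytoskeleton genes 0 rose and 2 fell, Nefh and Nefm, and the median was -0.10. Of 21 synaptic vesicle genes Stx1a rose and Vamp1 fell (median -0.06). Stx1a, a SNARE of the presynaptic membrane, had 27.6, 26.4 and 25.7 CPM in GSK retinas, against 17.9 and 15.5 CPM in saline retinas (0.67 ± 0.09, edgeR adjusted p = 0.00529). It was also the 1 call among 22 target genes of REST, the repressor of neuronal genes, of which 18 were lower in GSK retinas (median -0.06). The 14 measured ganglion cell genes held 0 calls and 5 genes with an unadjusted p under 0.05, against 8.98% of all tested genes. Nefh, which fell, and Nefl are also markers of ganglion cells but are not among these 14. They summed to 1045, 1015 and 1033 CPM in GSK retinas, against 1188 and 1122 CPM in saline retinas, and 12 of the 14 were lower in GSK retinas.

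With the 5 wild-type libraries fitted alone the same lists held more calls. Because the lists were chosen with earlier results of these data known, nothing is read from these counts beside the background. Against a background of 3.53% upward and 2.11% downward calls, 1 of 19 neurofilament and axon genes rose and 9 fell, and 0 of 16 voltage-gated channel genes of axons rose and 9 fell (median -0.17). The potassium channel gene Kcna1 stood at -0.32 ± 0.05 and the sodium channel subunit gene Scn4b at -0.52 ± 0.10 (edgeR adjusted p = 0.000563 and 0.0022). Of 14 ganglion cell genes 5 fell, among them Slc17a6, the vesicular glutamate transporter of ganglion cells (-0.28 ± 0.05, edgeR adjusted p = 0.000571). The 22 REST targets then split into 2 that rose and 4 that fell, Cplx1, a regulator of vesicle fusion, at -0.25 ± 0.04, and Rest itself rose by 0.27 ± 0.07 (edgeR adjusted p = 0.0174). Of 16 Müller glia genes 7 rose and 0 fell, and of 15 astrocyte and gliosis genes 2 rose and 4 fell. Gfap, the filament of reactive glia, had 23.3, 23.3 and 25.2 CPM in GSK retinas, against 40.3 and 34.3 CPM in saline retinas (-0.64 ± 0.07, edgeR adjusted p = 9.38e-06). Of 15 extracellular matrix genes 0 rose and 4 fell, Col3a1, a fibrillar collagen, by 1.18 ± 0.13 on the log2 scale. In the fit over all 11 libraries these named genes did not pass. The edgeR adjusted p there was 0.202 for Kcna1, 0.331 for Scn4b, 0.116 for Slc17a6 and 0.209 for Cplx1. For Rest it was 0.298, for Col3a1 0.554 and for Gfap 0.714 (-0.64 ± 0.36).

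**Figure D4:**
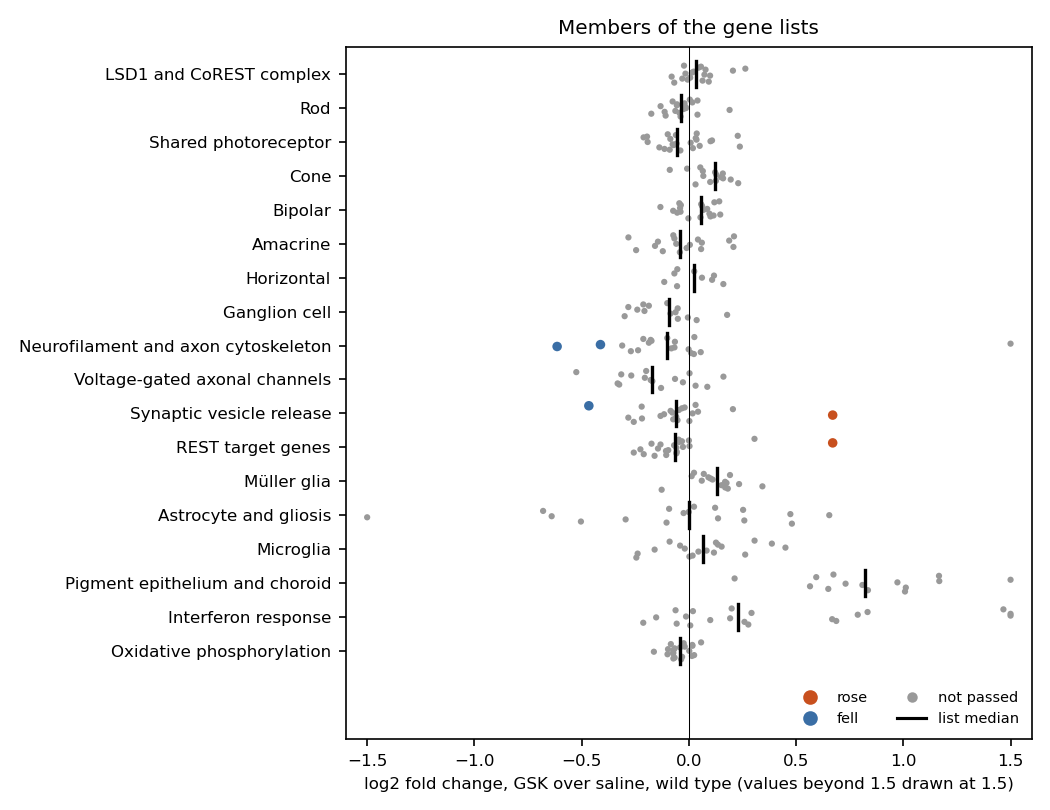
Points are the measured members of 18 gene lists, placed by log2 fold change of GSK over saline in wild-type retina (x axis, drawn at 1.5 where beyond), and black bars are list medians. Medians of the photoreceptor and interneuron lists lie close to 0, the 4 list members that passed stand apart in colour (Stx1a on 2 lists), and the pigment epithelium list lies to the right with 0 calls.

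Genes of the retinal pigment epithelium and choroid, tissues that border the retina, were higher in the GSK libraries without a call. All 14 measured genes had a positive log2 fold change (median 0.82), for 12 the GSK libraries lay above the saline libraries without overlap, as was so for 17.2% of all tested genes, and 3 had an unadjusted p under 0.05, against 8.98%. They summed to 467, 551 and 574 CPM in GSK retinas, against 285 and 419 CPM in saline retinas. Rpe65, the isomerase of the visual cycle, had 29.8, 38.3 and 35.1 CPM in GSK retinas, against 8.57 and 22.0 CPM in saline retinas. Its saline libraries differed by more than 2-fold. In the 5 wild-type libraries alone 3 of the 14 rose, against 3.53% of all genes in that fit, among them the melanosome transporter gene Slc45a2 (2.39 ± 0.59) and the chloride channel gene Best1 (1.00 ± 0.29). Both were low: Slc45a2 averaged 0.746 CPM in GSK and 0.134 CPM in saline retinas, and Best1 1.57 and 0.772 CPM. In the fit over all 11 libraries their edgeR adjusted p was 0.116 and 0.280. The part of these tissues in the other results was not tested.

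The same genes were read in the rd10 libraries, which are other animals but share the filter, the scaling and the estimate of spread with the wild-type libraries, so the rd10 calls are not a separate check on the 91 genes. In rd10 retinas 32.9% of tested genes changed with GSK, 17.6% upward and 15.2% downward. Of the 76 genes that rose in wild type 70 had a positive fold change in rd10, as did 51.1% of all tested genes, and 51 (67.1%) also rose there and 1 fell. Of the 15 that fell in wild type 13 had a negative fold change in rd10, 12 (80%) also fell and 2 rose. The shares were lower for the 916 genes called with the wild-type libraries fitted alone. Of their 573 rising genes 70.9% had a positive fold change in rd10, 41.2% also rose there and 55 fell, and of their 343 falling genes 72.3% had a negative one, 54.2% also fell and 59 rose. Baiap3 had 44.6, 47.4 and 59.2 CPM in rd10 GSK retinas, against 17.4, 17.7 and 17.2 CPM in rd10 saline retinas (1.53 ± 0.10), and Atp10b 1.66, 2.21 and 3.42 CPM in rd10 GSK retinas, against 0.0437, 0 and 0.0406 CPM in rd10 saline retinas. Nefh fell in rd10 by 0.38 ± 0.05 on the log2 scale, Vamp1 by 0.51 ± 0.05 and Pvalb by 1.23 ± 0.13.

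The drug effect itself differed between genotypes (wild type minus rd10, interaction test) for 32 of the 91 genes, against 12.5% of all tested genes (4.98% with the difference above 0 and 7.49% below). The 91 were chosen for their change in wild type, which is 1 side of this difference, so nothing is read from that count. It was 14 and 18 without saline replicates 1 and 2, and 9 without the libraries with lens transcripts, which are wild-type saline replicate 2 and rd10 GSK replicate 2. Ucp2 rose in wild type, but had 54.5, 42.8 and 40.7 CPM in rd10 GSK retinas and 42.1, 52.8 and 54.8 CPM in rd10 saline retinas (difference 1.37 ± 0.20, edgeR adjusted p = 0.002). Its level in rd10 saline retinas was above that of the wild-type GSK retinas. Trim72 (difference 2.75 ± 0.45), Bche (1.01 ± 0.19) and Chrnb1 (1.01 ± 0.19) likewise had rd10 groups that overlapped, at levels near or above those of wild-type GSK retinas. For 3 genes the change passed in opposite directions. Serpine2, a protease inhibitor, averaged 25.5 ± 1.68 CPM in wild-type GSK retinas and 18.3 ± 0.283 CPM in wild-type saline retinas, but 28.6 and 38.9 CPM in rd10 GSK and rd10 saline retinas (difference 0.92 ± 0.11, edgeR adjusted p = 0.000529). Tnfrsf8 and Hapln1, which fell in wild type, rose in rd10 by 0.65 ± 0.10 and 0.56 ± 0.14. Wdr66, a protein of motile cilia, and Limk2 rose in both genotypes and by more in rd10.

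**Figure D5:**
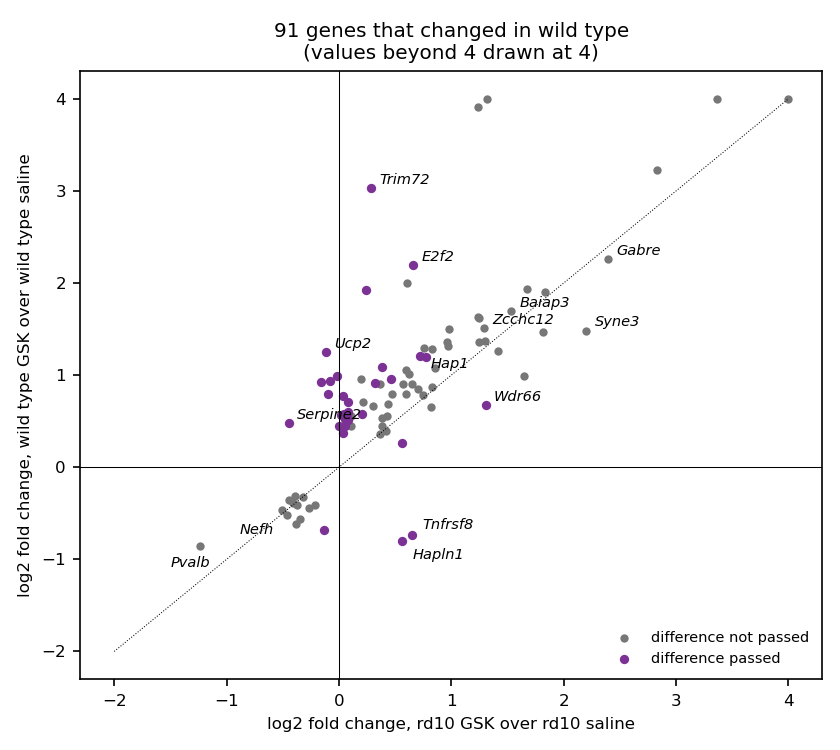
Each point is 1 of the 91 genes that changed in wild type, with its log2 fold change in rd10 on the x axis and in wild type on the y axis, both GSK over saline and drawn at 4 where beyond. Most points share their sign between the genotypes, the 32 genes whose difference passed are in purple, and Tnfrsf8, Hapln1 and Serpine2 lie across the vertical axis from their wild-type direction.

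The promoters of the changed genes were searched for letters bound by factors that recruit LSD1: the E-box CAGGTG of the Snail family and the left and right parts of the REST element, TTCAGCACC and GGACAGCGC, each on both strands. Promoters are 250 bases before to 50 after the start in RefSeq (GRCm38.p6) and were found for 58 of the 76 rising genes, 10 of the 15 falling genes and 11962 of all tested genes. CAGGTG was present in 29.3% of the rising genes with a promoter, 30% of the falling genes and 21.6% of all tested genes. TTCAGCACC was present in 1 rising gene, Efs, and GGACAGCGC in 0 of the changed genes, against 0.543% and 0.836% of all tested genes. The promoters of Baiap3 (chr17:25256315-25256614, minus strand) and Vamp1 (chr6:125215331-125215630, plus strand), a rising and a falling gene of vesicle release, are shown 5′ to 3′ because both hold the E-box, in capitals and here on the opposite strand. The same letters thus occur beside changes in both directions.
Baiap3: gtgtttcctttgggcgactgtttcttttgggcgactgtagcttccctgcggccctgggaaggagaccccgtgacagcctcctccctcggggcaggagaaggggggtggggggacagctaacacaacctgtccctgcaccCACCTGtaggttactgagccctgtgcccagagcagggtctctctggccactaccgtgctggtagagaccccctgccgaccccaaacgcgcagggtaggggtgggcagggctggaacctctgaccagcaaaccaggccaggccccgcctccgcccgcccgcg
Vamp1: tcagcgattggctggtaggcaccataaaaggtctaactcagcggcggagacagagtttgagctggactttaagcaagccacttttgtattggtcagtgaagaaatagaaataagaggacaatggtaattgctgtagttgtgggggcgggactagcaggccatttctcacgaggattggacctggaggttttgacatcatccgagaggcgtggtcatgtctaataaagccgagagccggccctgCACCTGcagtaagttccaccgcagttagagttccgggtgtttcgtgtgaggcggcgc

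The X chromosome held 8 of the 76 rising genes (10.5%), against 3.74% of tested genes, with Zcchc12, Gabre and Maob among them. Zcchc12 had 39.2 CPM in GSK replicate 2, the library without Xist, beside 37.0 and 36.9 CPM in the other GSK libraries. A fit limited to libraries with Xist above 100 CPM leaves 2 GSK and 2 saline wild-type retinas. There the 8 genes had log2 fold changes of 0.48 to 2.33, against 0.45 to 2.26 in the main fit. Those retinas are among the libraries that chose the genes, so nothing about sex is read from that fit. The part of sex in these rises was not tested.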

How the data were processed

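Counts of HTSeq per gene were deposited by the authors as raw whole-number counts for 37991 Ensembl identifiers in 11 libraries; per the submitters' processing notes, bcl2fastq, HISAT2 2.1.0, HTSeq and edgeR were used and the builds are named NCBIM37 and mm9. The version, strand setting and annotation file used with HTSeq were not given in the sources used here; genes that overlap others or have near-identical copies (such as the glutathione S-transferases) are uncertain. Names came from GENCODE M21 by identifier (32919 matched; the unnamed held 0.627% of counts).

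Low counts were removed by filterByExpr (at least 10 counts, total of 15 or more) and TMM scaling was applied. All 11 libraries entered 1 quasi-likelihood model with a term for each group (edgeR 4.0.16, R 4.3.3). Its common biological coefficient of variation was 0.129, against 0.0491 with the 5 wild-type libraries alone. The model was also run on counts simulated with the spread fitted to these libraries, so that run is no separate check on the calls. Wild-type saline has 2 animals. The members and the 54 gene lists (802 of 837 entries measured) were chosen with earlier results of these data known. Genes named by rule are Kdm1a, Hdac1 and Pde6b, the 12 largest rises and 12 largest falls at 5 CPM or more, and list members that passed or had the smallest p; a few of these are not reported here, and further genes were chosen after their values were seen. Alternatives included limma-voom 3.58.1, DESeq2 1.42.0, other scaling, no filter, Xist terms and left-out libraries. Promoter windows were matched by gene symbol.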

Additional observations from a re-analysis of the deposited data

Results flagged for a closer look

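For 22 named genes the drug effect in wild type differed from that in rd10 by the interaction test (edgeR, adjusted over all tested genes, where 12.5% passed). Only named genes that passed this test are listed. The difference below is the log2 fold change in wild type minus that in rd10. Most of the 22 were chosen for their change in wild type, which enters this difference, so the choice can enlarge it. Nothing is read from the count of 22 or from its relation to the 12.5%.

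Where the effect lay higher in wild type, the difference was 2.75 for Trim72, 1.54 for E2f2, 1.37 for Ucp2, 1.01 for Bche and 1.01 for Chrnb1. It was 0.92 for Serpine2, 0.70 for Gstm7, 0.59 for Rnf112, 0.51 for Cadps2, 0.49 for Pdyn, 0.49 for Hap1, 0.47 for Fezf2, a transcription factor gene that rose by 0.52 in wild type, and 0.43 for Mal2. For Rest it was 0.39 and for Syt16 0.37.

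Where the effect lay lower in wild type, the difference was -2.15 for the rod transducin gene Gnat1 and -1.94 for Pde6b. These 2 rod genes did not pass the test in wild type and rose with GSK in rd10. It was -1.39 for Tnfrsf8, -1.36 for Hapln1, -0.63 for Wdr66, -0.54 for Lgi2 and -0.29 for Limk2.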

How the results depend on the processing

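The count of 91 changed genes became 916 with the 5 wild-type libraries alone, 188 with DESeq2's Wald test, 52 with limma-voom, 54 with Xist as a covariate, 435 in libraries with Xist above 100 CPM, 12 without the libraries with lens transcripts, and 12 to 27 with 1 wild-type library left out. It stayed at 91 with DESeq2 size factors and was 120 without the low-count filter. The share of rises among the calls was 83.5% in the main fit and 62.6% with wild type alone. With the replicate number as a block 38 genes changed, 33 upward. Nothing in the labels says that a number is shared between groups. Deviations of wild-type libraries from their group mean correlated between -0.031 and 0.031 across treatments. With 2 saline libraries those deviations are exact opposites, so the correlations cannot tell whether the numbers pair the samples. Of the 91 genes 11 (among them 6330403K07Rik, Atp10b, Baiap3, E2f2, Gstm7, Hap1, Mal2, Nefh, Pdyn and Zcchc12) passed in each of the 14 alternatives, while 60 passed in at most 7. None of the 91 changed sign, which is no separate support. Their GSK and saline libraries did not overlap, and the alternatives reuse those libraries. The 32 genes whose effect differed between genotypes became 9 without the libraries with lens transcripts and 14 to 24 with 1 wild-type library left out. Fold changes near 0 crossed it: Hdac1 was 0.0099 with the replicate block, 0.0016 without the filter, 0.026 without lens libraries and -0.036 to 0.024 with 1 library left out, and Pde6b was 0.00891 without lens libraries, 0.00892 with Xist as a covariate and -0.037 to 0.0067 with 1 left out. The causes were not tested. Calls rest on 2 saline animals, and genes under 1 CPM on few counts.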
